A study of Saccharomyces cerevisiae with 42 samples.

Results

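Transcripts of 9 genes of trehalose metabolism in budding yeast (Saccharomyces cerevisiae) were followed by RNA-seq over 6 h of growth with or without myriocin (Myr): PGM2, UGP1, TPS1, TPS2, TPS3, TSL1, NTH1, NTH2 and ATH1. They were taken by gene identifier as the known enzymes and subunits of the pathway, and make up 9 of the 6106 genes in the deposited table. That rule uses no measured values, but earlier results of these data were known when it was set. All 9 passed the minimum of 1 TPM (a transcript's share of the library, scaled to 1000000 after division by its length) that 5983 genes met. The 42 libraries came from prototrophic BY4741 cells, a haploid laboratory strain of mating type a, with 3 libraries in each of 14 groups. The groups are Myr at each hour of the course, 0 to 6 h, in 700 ng/ml myriocin and 0.3% ethanol, and vehicle at the same hours, in 0.3% ethanol alone. Cells of a saturated culture were diluted into SDC medium at 30°C, so that ethanol and this dilution were shared by every group, and the 0 h libraries are cells just diluted. Myriocin inhibits serine palmitoyltransferase, the first enzyme of sphingolipid synthesis. The paper states that every hour of a replicate was drawn from a single flask. The columns of the table carry a culture letter (A to C with Myr, A to D in vehicle) and no replicate number, so no Myr culture could be matched with a vehicle culture. No vehicle letter is present at every hour, so for vehicle the letters do not show a single flask per replicate. The p-values below rest on the spread between libraries within groups, pooled over all groups of a fit. A p-value at a given hour thus also draws on libraries of other hours, unless that hour was fitted on its own. Except where the culture letter was a random block, libraries that share a letter were treated as independent. Libraries are named by letter.

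Trehalose is a disaccharide of glucose that yeast stores as cells enter stationary phase or meet stress, and breaks down when growth resumes. It is made from UDP-glucose and glucose 6-phosphate by a complex of a synthase (Tps1), a phosphatase (Tps2) and the regulatory subunits Tps3 and Tsl1. Phosphoglucomutase (Pgm2) and UDP-glucose pyrophosphorylase (Ugp1) supply the UDP-glucose, which is also used for glycogen and the cell wall. Breakdown is by the neutral trehalases Nth1 and Nth2 in the cytosol and the acid trehalase Ath1, which acts on trehalose outside the cell and in the vacuole.

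Columns of the table each sum to 1000000 TPM, and read counts are not in it, so the depth behind each library is unknown. Libraries of a group had a correlation of 0.975 to 0.995 over genes. Of the markers of cell type, the 4 genes of mating type a summed to 8177 to 19003 TPM over the Myr libraries and 6925 to 20327 TPM over the vehicle libraries. The 3 genes of the other mating type summed to 22.2 to 95.1 TPM with Myr and 16.3 to 72.7 TPM in vehicle, and 3 meiotic genes to 10.8 to 19.1 TPM with Myr and 8.48 to 21.2 TPM in vehicle. In 4 vehicle libraries a single short transcript, RPL41A, took over 70000 TPM, and these stood apart. They were library A of 5 h, library B of 4 h, and both A and B of 3 h. Since TPM are shares of a whole, such a transcript lowers every other value in its library, and comparisons at 3, 4 and 5 h are given with and without these libraries.

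The genes lie on 5 chromosomes of the R64 genome, and the annotation gives each a single coding exon with no intron. On chromosome XIII are PGM2 (YMR105C, 475897 to 477606, minus strand), TPS3 (YMR261C, 790205 to 793369, minus) and TSL1 (YML100W, 70624 to 73920, plus). UGP1 (YKL035W) lies on chromosome XI at 369891 to 371390, plus strand. TPS1 (YBR126C, 488905 to 490392) and NTH2 (YBR001C, 238941 to 241283) lie on the minus strand of chromosome II. Chromosome IV holds TPS2 (YDR074W, 593893 to 596583, plus) and NTH1 (YDR001C, 450220 to 452475, minus), and chromosome XVI holds ATH1 (YPR026W, 615379 to 619014, plus). The coding sequences of the paralogues TPS3 and TSL1 were 67.2% identical over aligned bases, with a longest identical run of 15 bases, and those of NTH1 and NTH2 were 72.4% identical, with a longest run of 33 bases.

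The regions before the start codons were read for the stress response element, searched as AGGGG and, on the other strand, CCCCT. This element is bound by the transcription factors Msn2 and Msn4 in stressed yeast. It is shown because it is the element best known before genes of this pathway, and the members differed widely in how many they held. In the 500 bases before the start codon, TPS1 held 6 matches, PGM2 and TSL1 5 each, UGP1 and TPS2 4 each, NTH1 3, TPS3 2, ATH1 1 and NTH2 0. Of 6006 yeast promoters of the same length, 34.1% held at least 1 match, 8.18% at least 2 and 1.83% at least 3. A window of 250 bases before to 50 after the start codon, the one first planned, gave another order: TPS1, TPS3 and TSL1 held 3 matches each, PGM2 and NTH1 1 each, and UGP1, TPS2, NTH2 and ATH1 0, where 21.6% of 6007 promoters held at least 1. The stretch of 30 bases with the most matches in each gene, from the RefSeq R64 genome, is given below, 5′ to 3′ on the gene's strand, with the matches in capitals. Positions count from the start codon, with -1 as the base before it.
TPS1: gtcagggcAGGGGctctcAGGGGggcgcca
TSL1: aggagaAGGGGgtagaaccaAGGGGctagc
TPS2: gacCCCCTccttccaacggtcaaCCCCTtc
NTH1: aggacgaagCCCCTtatCCCCTagttaccg
TPS3: ggtgCCCCTggaattaattaatCCCCTtca
UGP1: acctgatCCCCTtcccccgCCCCTtctcga
PGM2: tccaggaacaaacAGGGGttgaaaagtgta
ATH1: catctcttctttgCCCCTcaaaatttattt
These lie at chrII:490620-490649, minus strand (TPS1, -257 to -228), chrXIII:70439-70468, plus (TSL1, -185 to -156), chrIV:593449-593478, plus (TPS2, -444 to -415) and chrIV:452805-452834, minus (NTH1, -359 to -330). The others lie at chrXIII:793579-793608, minus (TPS3, -239 to -210), chrXI:369612-369641, plus (UGP1, -279 to -250), chrXIII:477806-477835, minus (PGM2, -229 to -200) and chrXVI:615062-615091, plus (ATH1, -317 to -288).

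Neighbouring genes limit these windows. The coding region before UGP1, that of AIM26, ends 169 bases from the UGP1 start codon, so all 4 UGP1 matches lie in AIM26. For TSL1, 174 of the 500 bases are coding bases of YML100W-A, with 2 of its 5 matches, and for TPS1 1 of the 6 matches lies in the neighbouring gene MEO1. A heat shock element, GAANNTTC, the same on both strands, was matched 2 times before TSL1, 2 times before ATH1 and 1 time before NTH2, and 0 times before the other 6 genes. At least 1 match was held by 19.2% of promoters. No match overlapped another. A match is a description of the letters, and binding was not measured.

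**Figure D1:**
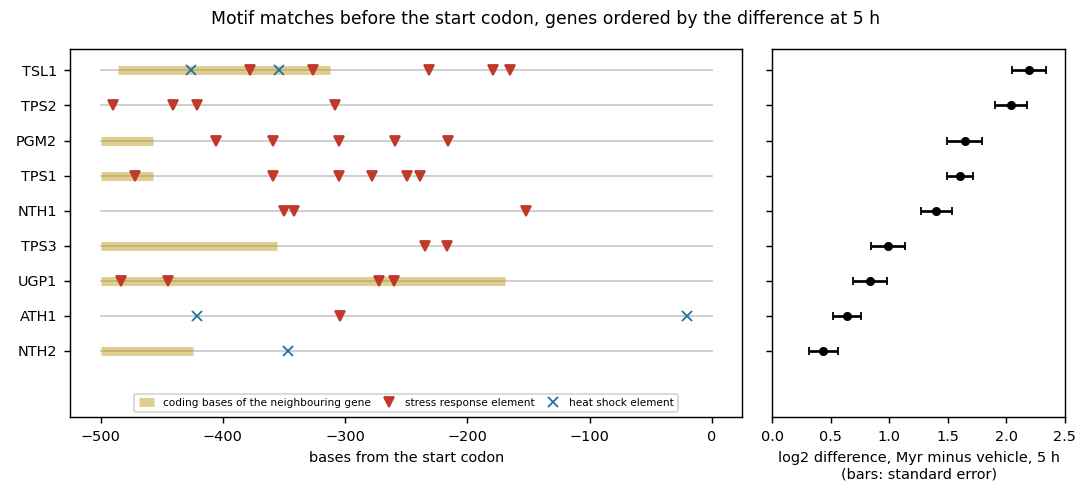
Left, matches to the stress response element (red triangles) and the heat shock element (blue crosses) by distance in bases from the start codon, with coding bases of the neighbouring gene shaded. Right, the Myr minus vehicle difference at 5 h in log2(TPM + 1), with the standard error of the fit as bars. The 4 matches of UGP1 lie in its neighbour, and all 4 of TPS2, whose difference is 2.04, lie more than 250 bases from the start codon; no relation between matches and differences was tested.

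In vehicle cells just diluted from the saturated culture, 5 of the 9 genes, PGM2, TPS1, NTH1, NTH2 and ATH1, had their highest mean of all 14 groups. Within the vehicle course TPS2 and TSL1 were also highest at 0 h, with means of 58.8 and 46.3 TPM. None of the 9 genes differed between Myr and vehicle at 0 h past the test. TPS1 averaged 195 ± 6.73 TPM with Myr and 233 ± 34.8 TPM in vehicle, and PGM2 135 ± 10.2 TPM with Myr and 175 ± 35.8 TPM in vehicle (SD, n = 3 each). NTH1 averaged 105 ± 9.07 TPM with Myr and 122 ± 9.03 TPM in vehicle. The first hour of growth ended this: all 9 genes were lower at 1 h than at 0 h with Myr and all 9 in vehicle (limma, Benjamini-Hochberg adjusted p under 0.05), where 55.6% of all genes were lower with Myr and 52.6% in vehicle. The median log2 difference of the 9 was -2.78 with Myr and -2.95 in vehicle, against -0.48 and -0.38 over all genes tested. PGM2 showed the largest, -4.29 ± 0.15 with Myr and -5.07 ± 0.15 in vehicle (standard error). NTH2 showed the smallest, -0.83 ± 0.12 with Myr and -0.78 ± 0.12 in vehicle. These are shares of the mRNA, and less RNA of a gene per cell and fewer cells that express it cannot be told apart in bulk samples. Scaled to the spike-ins, the median of all genes was 1.14 higher at 1 h than at 0 h with Myr and 0.88 higher in vehicle, and UGP1, NTH1 and NTH2 with Myr (0.23, 0.20 and 0.79) and NTH2 in vehicle (0.49) turned to positive differences, while the other genes stayed lower.

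At 0 h, 0 of the 9 genes were called higher and 0 lower with Myr. The background was 8.26% of all genes higher and 3.63% lower. At an unadjusted p under 0.05, PGM2 and TPS1 differed, with log2 differences of -0.35 ± 0.15 and -0.25 ± 0.11. How many of all genes passed that unadjusted threshold was not counted. The median of the 9 was -0.21, against 0.07 over all genes. After centring each library on its median gene 5 were called lower, where 13.3% of all genes were, and after removal of a trend on coding length 7, where 13.96% were.

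**Figure D2:**
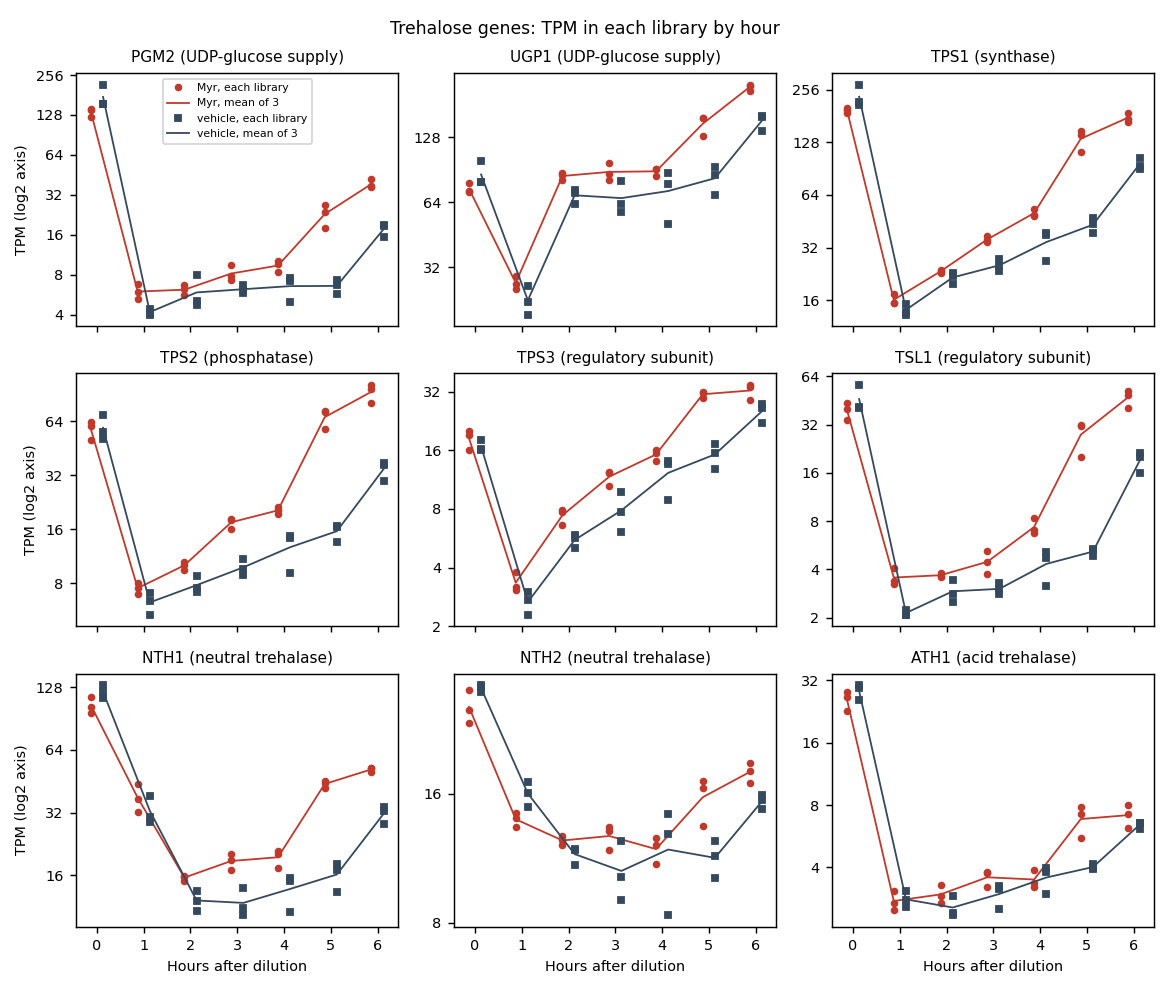
TPM on a log2 axis (vertical) by hour after dilution (horizontal) for each of the 9 genes. Red circles are single Myr libraries and dark squares single vehicle libraries, with lines through the means of 3; the widest gaps between the lines are at 5 h, where the TSL1 means are 27.8 TPM with Myr and 5.17 TPM in vehicle.

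From 1 to 4 h the differences between Myr and vehicle were small. At 1 h the log2 differences ran between -0.19 (NTH2) and 0.54 (TSL1), and 1 of 9 genes was called higher, TSL1, at a background of 2.42%. TSL1 stood at 4.05, 3.38 and 3.25 TPM in Myr libraries A, B and C, against 2.09, 2.08 and 2.25 TPM in vehicle libraries A, B and C. The groups did not overlap, yet the call (limma, adjusted p = 0.026) was lost without any of 5 of the 6 libraries of that hour. All Myr libraries lay above all vehicle libraries in 4 of the 9 genes, PGM2, TPS1, TPS3 and TSL1, and in 8.96% of all genes. They lay below in 1, NTH2, and in 10.2% of all genes. At 2 h, 0 of 9 were called, at a background of 16.0%, and 4 genes, UGP1, TPS2, TPS3 and NTH1, had an unadjusted p under 0.05. The share of all genes under that unadjusted p was not counted.

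At 3 h, 6 of the 9 genes were called higher with Myr, UGP1, TPS1, TPS2, TPS3, TSL1 and NTH1, at a background of 39.4%. The largest difference was that of TPS2, 0.78 ± 0.13, with 18.3, 18.1 and 16.1 TPM in Myr libraries A, B and C, against 8.92, 9.56 and 11.0 TPM in vehicle libraries A, B and D. Without the RPL41A-rich libraries, which leaves 1 vehicle library at 3 h, whose spread is then assumed to be that of the other groups, only TPS2 was called, at 0.63, where 1.34% of all genes were. The differences of TSL1 (0.44), NTH1 (0.40) and TPS1 (0.37) then missed the threshold, that of TSL1 with almost the same size as before. At 4 h TPS1, TPS2, TSL1 and NTH1 were called higher (4 of 9, at a background of 6.12%), by 0.55 ± 0.11, 0.67 ± 0.13, 0.66 ± 0.15 and 0.49 ± 0.13. TPS1 stood at 49.5, 48.6 and 53.2 TPM in Myr libraries A, B and C, against 26.8, 38.8 and 37.7 TPM in vehicle libraries B, C and D. The low vehicle library is the RPL41A-rich one, without which TPS1 and TPS2 were called (0.39 and 0.46) and TSL1 and NTH1 were not (0.50 and 0.33). With that hour fitted on its own, none of the 4 was called (limma, adjusted p = 0.23, 0.17, 0.17 and 0.39), where 0.685% of all genes were called higher.

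At 5 h all 9 genes were higher with Myr (limma, adjusted p under 0.05), at a background of 52.2% of all genes higher. The median log2 difference of the 9 was 1.40, against 0.31 over all genes. In every one of the 9 the lowest Myr library lay above the highest vehicle library, as it did for 64.7% of all genes. Ranked by size among the 5983 differences, TSL1 was 38th, TPS2 53rd, PGM2 92nd, TPS1 99th, NTH1 152nd, TPS3 346th, UGP1 507th, ATH1 926th and NTH2 1929th. Without the RPL41A-rich libraries, vehicle library A of that hour among them, all 9 were still called, with a median of 1.28. Of all genes, 47.6% were then higher. The split of calls over all genes depended on scale: 3121 higher and 239 lower as deposited, 1412 and 1243 after median centring, 1190 and 1649 after removal of the length trend, and 5246 and 37 with spike-in scaling, for which each treatment had its own mix. Spike-in scaling moved the median of all genes to 0.81 and that of the 9 to 1.92, and median centring moved them to 0.01 and 1.09, with no gene of the 9 turning negative at 5 h under any of these.

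**Figure D3:**
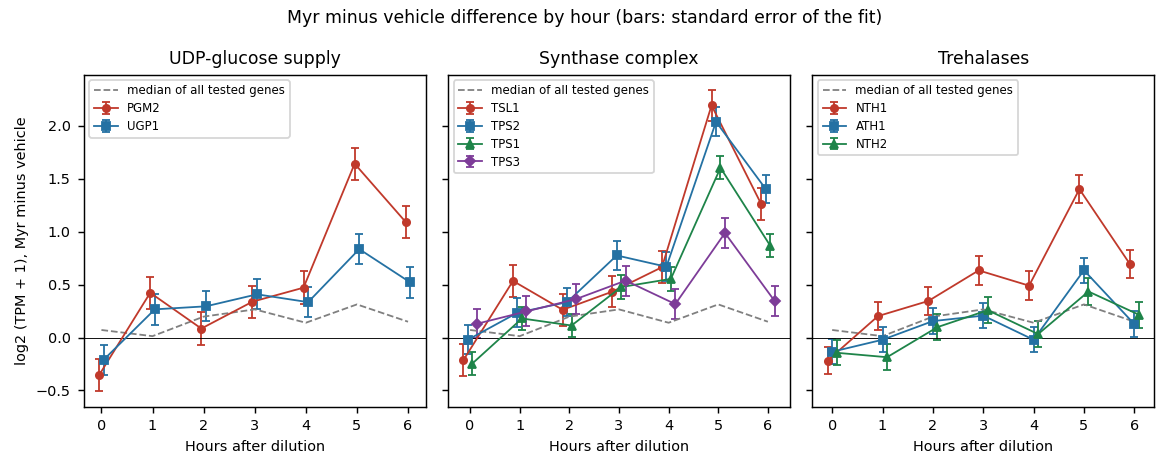
Myr minus vehicle difference in log2(TPM + 1) (vertical) by hour (horizontal), in panels for UDP-glucose supply, the synthase complex and the trehalases; bars are the standard error of the fit and the dashed line is the median of all tested genes. Every gene has its highest value at 5 h, from 0.43 for NTH2 to 2.19 for TSL1, where the dashed line stands at 0.31.

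Of the catalytic subunits, TPS1, which makes trehalose 6-phosphate, stood at 113, 149 and 141 TPM in Myr 5 h libraries A, B and C, against 38.9, 43.7 and 47.4 TPM in vehicle libraries A, B and C. The difference was 1.60 ± 0.11 (limma, adjusted p = 4.82e-13). TPS2, which removes the phosphate, stood at 57.9, 72.7 and 71.5 TPM in Myr libraries A, B and C, against 13.6, 16.8 and 16.4 TPM in vehicle libraries A, B and C, a difference of 2.04 ± 0.13 (adjusted p = 1.89e-13). In both genes library A was the lowest of its group with Myr and in vehicle, and the groups lay far apart. The larger difference of TPS2 showed in its ratio to TPS1 within a library, which was 0.50 ± 0.01 with Myr and 0.36 ± 0.02 in vehicle (SD, n = 3 each).

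The regulatory subunits Tsl1 and Tps3 are paralogues that stabilise the complex, and their transcripts differed in size of change. TSL1 stood at 20.2, 31.7 and 31.4 TPM in Myr 5 h libraries A, B and C, against 4.82, 5.37 and 5.32 TPM in vehicle libraries A, B and C, a difference of 2.19 ± 0.15 (limma, adjusted p = 3.47e-13). TPS3 stood at 29.7, 31.3 and 32.0 TPM in Myr libraries A, B and C, against 12.9, 15.5 and 17.3 TPM in vehicle libraries A, B and C, a difference of 0.99 ± 0.14 (adjusted p = 1.49e-06). TSL1 was nearer to the TPS3 level in Myr cells than in vehicle cells: the ratio of TSL1 to TPS3 was 0.89 ± 0.18 with Myr and 0.34 ± 0.03 in vehicle.

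In UDP-glucose supply, PGM2 stood at 18.0, 26.8 and 23.8 TPM in Myr 5 h libraries A, B and C, against 5.76, 6.69 and 7.28 TPM in vehicle libraries A, B and C (1.64 ± 0.15, limma, adjusted p = 4.05e-10). UGP1, whose product is needed by every UDP-glucose pathway, was the most abundant of the 9 at this hour, at 129, 157 and 157 TPM in Myr libraries A, B and C, against 69.0, 86.0 and 93.0 TPM in vehicle libraries A, B and C (0.84 ± 0.14, adjusted p = 2.11e-05). The lowest Myr value of UGP1 lay well above the highest vehicle value.

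The breakdown genes were higher too, and unequally. NTH1, the main neutral trehalase, stood at 42.0, 45.4 and 44.3 TPM in Myr 5 h libraries A, B and C, against 13.3, 18.1 and 17.0 TPM in vehicle libraries A, B and C, a difference of 1.40 ± 0.13 (limma, adjusted p = 6.76e-10). NTH2 stood at 13.5, 16.5 and 17.2 TPM with Myr, against 10.2, 12.4 and 11.5 TPM in vehicle, in libraries A, B and C of each. Its difference of 0.43 ± 0.12 (adjusted p = 0.00454) missed the threshold after median centring, at 0.13, and after removal of the length trend, at 0.06. ATH1 stood at 5.54, 7.20 and 7.79 TPM in Myr libraries A, B and C, against 3.91, 3.95 and 4.17 TPM in vehicle libraries A, B and C (0.64 ± 0.12, adjusted p = 7.16e-05). The ratio of NTH2 to NTH1 was 0.36 ± 0.03 with Myr and 0.71 ± 0.05 in vehicle, so that NTH1 transcripts outnumbered those of NTH2 more strongly in Myr cells.

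At 6 h, 6 of the 9 genes were called higher with Myr, at a background of 19.6%, and the median of the 9 was 0.70, against 0.15 over all genes. The 6 were TPS2 (1.40 ± 0.13), TSL1 (1.26 ± 0.15), PGM2 (1.09 ± 0.15), TPS1 (0.87 ± 0.11), NTH1 (0.70 ± 0.13) and UGP1 (0.52 ± 0.14). TPS3 (0.35 ± 0.14), NTH2 (0.22 ± 0.12) and ATH1 (0.13 ± 0.12) did not pass (limma, adjusted p = 0.079, 0.22 and 0.47), and without the RPL41A-rich libraries, none of which is of this hour, TPS3 and NTH2 did. The Myr libraries lay above all vehicle libraries in 8 of the 9 genes, ATH1 being the exception, and in 43.8% of all genes. TPS2 stood at 102, 81.2 and 96.9 TPM in Myr libraries A, B and C, against 29.6, 36.7 and 37.6 TPM in vehicle libraries A, B and C. TPS1 stood at 175, 168 and 187 TPM in Myr libraries, against 89.9, 94.3 and 105 TPM in vehicle libraries, A, B and C of each. The differences at 6 h were smaller than at 5 h for each of the 9 genes, and in 9 of 9 the vehicle mean was higher at 6 h than at 5 h.

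Whether the effect of Myr changed over the course was tested in 2 ways. The effect at 5 and 6 h minus the effect at 1 to 4 h was positive past the test in 7 of 9 genes, at a background of 18.7% of all genes. It was 1.25 ± 0.13 for TSL1, 1.22 ± 0.12 for TPS2, 1.04 ± 0.13 for PGM2, 0.91 ± 0.10 for TPS1 and 0.63 ± 0.12 for NTH1, and smaller for UGP1 (0.35) and ATH1 (0.30). TPS3 (0.30, limma, adjusted p = 0.08) and NTH2 (0.27, adjusted p = 0.066) did not pass. The interaction of drug and time over 1 to 6 h had p of 0.01 or less in 6 of 9 genes, PGM2, TPS1, TPS2, TSL1, NTH1 and ATH1, at a background of 22.6%. Apart from that change, the time effect passed in 9 of 9 (background 86.5%), and the drug effect averaged over 1 to 6 h was positive in 9 of 9 (background 64.5% higher), between 0.14 ± 0.05 for NTH2 and 0.91 ± 0.06 for TPS2. The drug effects of NTH2 and ATH1 turned negative after removal of the length trend (-0.07 and -0.03) and that of NTH2 after median centring (-0.02). With the culture letter as a random block 7 of 9 drug effects passed, where 45.6% of all genes were higher. Those of NTH2 (0.14) and ATH1 (0.18) did not pass.

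The step between 4 and 5 h was tested within each treatment, and the difference between the 2 steps was not tested. With Myr, 9 of 9 genes were higher at 5 h than at 4 h, at a background of 31.6%, led by TSL1 (1.76 ± 0.15), TPS2 (1.67 ± 0.14) and TPS1 (1.39 ± 0.11). In vehicle, 0 of 9 were called in limma, at a background of 1.24% of all genes higher, and TPS1, TPS2 and TPS3 had an unadjusted p under 0.05, at 0.34, 0.30 and 0.31. No share of all genes was counted for that unadjusted p. With spike-in scaling 5 of 9 were called higher in Myr cells, where 3.44% of all genes were, and after median centring 4 of 9 in vehicle cells, where 5.42% were. Over 1 to 6 h, 9 of 9 genes were higher at 6 h than at 1 h with Myr (background 50.6%) and 7 of 9 in vehicle (background 43.3%). The 2 others in vehicle were the neutral trehalases, NTH1 at -0.04 ± 0.13 and NTH2 at -0.06 ± 0.12. In Myr cells the same contrast was 0.45 ± 0.13 for NTH1 and 0.34 ± 0.12 for NTH2, while TPS2, TSL1 and TPS1 were 3.47, 3.40 and 3.38 higher. The neutral trehalase values depended on scale. With Myr neither was called after median centring (0.13 for NTH1 and 0.03 for NTH2), spike-in scaling (0.10 and 0.0008) or removal of the length trend (0.08 and -0.04), which leaves 7 of 9. Of all genes, 39.3%, 26.9% and 37.3% were higher under these alternatives, in that order. In vehicle both were called lower after median centring (-0.23 for NTH1 and -0.24 for NTH2), where 38.9% of all genes were. Both were also called lower after removal of the length trend (-0.27 and -0.29), where 39.55% were.

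The lowest means of the neutral trehalases came later than those of the synthase genes, which all had theirs at 1 h after dilution. NTH1 was lowest at 2 h and NTH2 at 4 h with Myr, and both at 3 h in vehicle. ATH1, the third trehalase, was lowest at 1 h with Myr and at 2 h in vehicle. TSL1 with Myr hardly moved over that hour, at 3.56 ± 0.43 TPM at 1 h and 3.68 ± 0.13 TPM at 2 h, with overlapping libraries. NTH1 stood at 37.7 ± 5.97 TPM at 1 h and 15.6 ± 0.45 TPM at 2 h with Myr, against 32.6 ± 5.07 and 12.1 ± 1.33 TPM in vehicle (SD, n = 3 each). The summed TPM of TPS1, TPS2, TPS3 and TSL1, divided by the summed TPM of the 3 trehalases in the same library, is free of the scaling of a library. It was 1.99 ± 0.10 with Myr and 1.99 ± 0.37 in vehicle at 0 h, 0.56 ± 0.03 with Myr and 0.49 ± 0.02 in vehicle at 1 h, and 1.44 ± 0.02 with Myr and 1.45 ± 0.04 in vehicle at 2 h. At 5 h it was 3.91 ± 0.26 with Myr and 2.53 ± 0.15 in vehicle, and at 6 h 4.55 ± 0.23 with Myr and 3.28 ± 0.08 in vehicle. The libraries of the 2 treatments did not overlap at 1, 4, 5 or 6 h. These ratios are descriptions and were not tested.

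**Figure D4:**
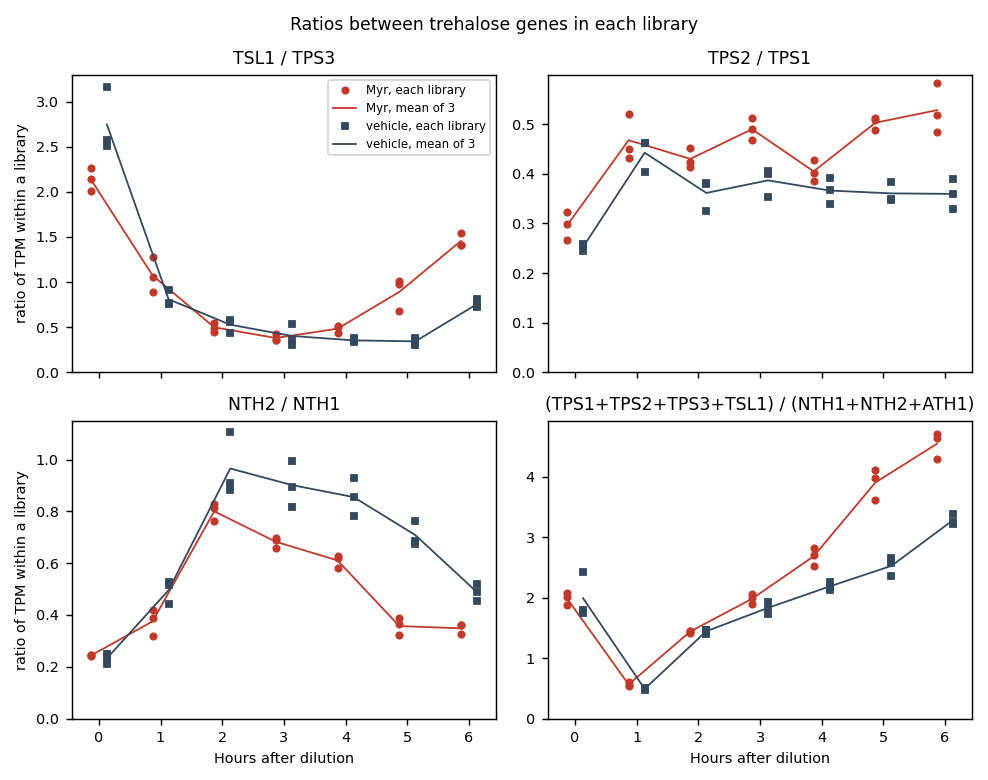
Ratios of TPM within a library (vertical, starting at 0) by hour (horizontal), with red circles for single Myr libraries, dark squares for single vehicle libraries and lines through the means of 3. At 5 h the TSL1 to TPS3 ratio is 0.89 with Myr and 0.34 in vehicle, and the NTH2 to NTH1 ratio is 0.36 with Myr and 0.71 in vehicle.

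The make-up of the pathway's transcripts also shifted with growth phase. TSL1 exceeded TPS3 by a ratio of 2.14 ± 0.13 with Myr and 2.75 ± 0.36 in vehicle at 0 h, and stood below it in both treatments at 2 h and at 3 h, when the ratio was 0.38 ± 0.04 with Myr and 0.40 ± 0.12 in vehicle. At 6 h the ratio was 1.46 ± 0.08 with Myr and 0.76 ± 0.04 in vehicle. PGM2 exceeded UGP1 at 0 h, with ratios of 1.83 ± 0.13 with Myr and 2.02 ± 0.13 in vehicle, and stood far below it at 5 h, at 0.15 ± 0.02 with Myr and 0.08 ± 0.003 in vehicle. The ratio of the summed regulatory subunits to TPS1 was 0.43 ± 0.03 with Myr and 0.34 ± 0.01 in vehicle at 1 h, and 0.44 ± 0.01 with Myr and 0.47 ± 0.01 in vehicle at 5 h, with no overlap of libraries at either hour.

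By 6 h the genes had returned to different shares of their 0 h level. UGP1 stood above its 0 h range in both treatments, at 296% of the 0 h mean with Myr and 177% in vehicle, as did TPS3, at 175% with Myr and 151% in vehicle. TPS2 stood above its 0 h range with Myr, at 162%, and below it in vehicle, at 58.9%. TSL1 with Myr overlapped its 0 h range, at 120%, and was below it in vehicle, at 41.4%. PGM2, at 28.6% with Myr and 10.1% in vehicle, and ATH1, at 27.6% with Myr and 22.6% in vehicle, were farthest below. These are shares of TPM and depend on scale. With spike-in scaling TPS2 stood at 391.9% with Myr and 117% in vehicle, and PGM2 at 70.0% with Myr and 20.2% in vehicle. TSL1 then stood at 292% with Myr, above its 0 h range, and at 83.1% in vehicle. Of the genes named above, TPS2 and TSL1 in vehicle and PGM2 and ATH1 with Myr then overlapped their 0 h range. UGP1 and TPS3 stayed above it in both treatments, and PGM2 and ATH1 below it in vehicle. TPS1 with Myr moved from below its 0 h range, at 90.5%, to above it, at 223%. As deposited, NTH1 and NTH2 stood below their 0 h ranges in both treatments, at 49.2% and 70.4% with Myr and 25.9% and 54.3% in vehicle. With spike-in scaling NTH2 with Myr stood above its range, at 171%, and NTH1 in vehicle below, at 50.2%. NTH1 with Myr and NTH2 in vehicle then overlapped theirs. The share of all genes above or below their 0 h range was not counted, so these genes cannot be set against a background.

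All 9 means were higher at 5 h than at 4 h with Myr, and at 6 h than at 5 h in vehicle. Myr cells at 5 h can be set beside vehicle cells at 6 h, as values only. From 1 to 6 h in vehicle, NTH1 and NTH2 were not called higher (-0.04 and -0.06). TPS2 averaged 67.4 ± 8.24 TPM in Myr cells at 5 h and 34.7 ± 4.36 TPM in vehicle cells at 6 h, and TPS1 134 ± 18.9 TPM in Myr cells at 5 h and 96.3 ± 7.55 TPM in vehicle cells at 6 h (SD, n = 3 each). For TPS1, TPS2, TPS3 and NTH1 all Myr 5 h libraries lay above all vehicle 6 h libraries, and for the other 5 genes the ranges overlapped. The share of all genes that lay apart in this way was not counted, so these genes cannot be set against a background. UGP1 averaged 148 ± 16.1 TPM in Myr cells at 5 h and 152 ± 13.3 TPM in vehicle cells at 6 h.

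Ordered by their means over the 14 groups, the highest group was vehicle at 0 h for PGM2, TPS1, NTH1, NTH2 and ATH1, and Myr at 6 h for UGP1, TPS2, TPS3 and TSL1. Of the 13 pairs of neighbouring groups in that order, 4 overlapped for TPS1, 7 for TPS3, 8 for PGM2 and TPS2, 9 for TSL1 and 10 for UGP1, NTH1, NTH2 and ATH1. Means of NTH2 lay between 10.6 and 28.3 TPM, a 2.68-fold span and the narrowest of the 9.

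Across the 14 group means the members fell into unlike patterns (Pearson r on log2(TPM + 1), a description over points that share libraries and hours). TPS1 correlated with TSL1 at 0.98, TPS2 at 0.98 and TPS3 at 0.87. PGM2 went most closely with ATH1, at 0.98, and NTH1 with NTH2, at 0.97. UGP1 went with TPS3, at 0.91, and hardly with NTH1 or NTH2, at 0.12 each. Among the 5147 genes that averaged 10 TPM or more, the 3 most like TPS1 were ARA1, YKL091C and PNC1 (nicotinamidase), at 0.998, 0.995 and 0.993. Those most like TPS2 were GPD1 (glycerol 3-phosphate dehydrogenase), CHS5 and SSK1, at 0.991, 0.99 and 0.989, and those most like TSL1 were PNC1, GPC1 and IML2, at 0.986, 0.984 and 0.984. For TPS3 they were COQ6, PTC5 and ARC40 (0.997, 0.994 and 0.994). For PGM2 they were YMR196W, URA8 and STF1 (0.997, 0.993 and 0.993), and for UGP1 EST3, SRV2 and ABF2 (0.976, 0.975 and 0.972). The genes most like NTH1 were TGL3, UBI4 (polyubiquitin) and TMC1 (0.985, 0.983 and 0.976), those most like NTH2 were MMS2, MSN1 and DOA4 (0.987, 0.986 and 0.983), and those most like ATH1 were CIT1 (mitochondrial citrate synthase), UBC8 and YJL163C (0.996, 0.995 and 0.994). Such values are common here: 727 genes passed 0.9 with TPS1 and 146 with UGP1.

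Genes next to the pathway were read from 4 lists. Of the hexose kinases and PGM1, 4 of 4 were higher with Myr at 5 h, with a median of 1.50, against the 0.31 of all genes. The counts below stand beside 52.2% of all genes higher at 5 h and 19.6% at 6 h. HXK1 and GLK1, which phosphorylate hexose and glucose, were higher by 2.68 ± 0.16 and 2.16 ± 0.12 (limma, adjusted p = 1.17e-14 and 3.58e-15), and PGM1, the other phosphoglucomutase, by 0.84 ± 0.13. Of 10 glycogen genes, 8 were higher and 0 lower at 5 h, with a median of 0.77, among them GPH1 (glycogen phosphorylase, 1.64 ± 0.13) and the glycogen synthases GSY1 (1.52 ± 0.13) and GSY2 (1.08 ± 0.10). At 6 h 4 of the 10 were higher. A list of 4 genes held those linked to the neutral trehalase and their paralogues. Of these, 4 were higher at 5 h and 4 at 6 h, with medians of 0.83 and 0.50. DCS1 (1.52 ± 0.12) and DCS2 (0.95 ± 0.12) are paralogues of which Dcs1 is linked to trehalase activity, and BMH2 (0.71 ± 0.11) encodes a 14-3-3 protein that binds phosphorylated Nth1. Of 12 genes of the signalling above the pathway, 9 were higher at 5 h and 1 at 6 h, with medians of 0.57 and 0.22. The 1 of 12 at 6 h is below the share of all genes. Among them were TPK2 (1.19 ± 0.17), a subunit of protein kinase A, which activates Nth1, and YAK1 (1.14 ± 0.13), a kinase opposed by protein kinase A. HXK2 stands in the first and the last list.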

How the data were processed

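RNA-seq was done on 42 samples, 3 in each of 14 groups. Per the labels and the paper's methods, the authors prepared stranded, polyadenylated mRNA libraries with ERCC-type spike-ins (one mix for Myr, another for vehicle), demultiplexed with bcl2fastq 2.17.1.14, trimmed with Trimmomatic 0.36, quantified with Salmon 0.8.2 against R64, and deposited TPM. The table holds 6198 rows, 92 of them spike-ins, and 0 columns of samples were left unused. Of 6106 gene IDs, 6103 matched R64. TPM hold no depth, so counting error is unknown. Columns were grouped by the treatment and hour they name.

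The filter kept 5983 genes, those averaging 1 TPM or more across the 36 libraries taken after 0 h. limma 3.58.1 in R 4.3.3 was fitted to log2(TPM + 1) with 12 group means, and with 14 group means of 42 libraries for contrasts with 0 h or between hours. Moderation used a variance trend. Calls were Benjamini-Hochberg adjusted p under 0.05 over all genes, and p of 0.01 or less for the time, drug and interaction terms, the cutoff of the study. Fold changes on this scale understate those of low genes. The fit was tested on simulated data.

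Pseudocounts of 0.1 and 10, no filter, a minimum of 10 TPM, spike-in scaling, centring on the median gene, moderation without the trend, removal of a trend on coding length (loess, span 0.5), omission of the RPL41A-rich libraries, each library left out, the culture letter as a random block and each hour on its own were tried. Each treatment had its own spike-in mix, and spike-in factors were taken relative to the 0 h libraries of the same treatment. Spike-in scaling therefore does not compare the amount of RNA between Myr and vehicle at 0 h, and its later differences rest on this. The members, lists and alternatives were chosen with earlier results of these data known. Named genes were the members, up to 3 called genes of each list with the largest change at 5 h, and the 3 genes most like each member. A gene that this rule names is not reported here. Sequences came from the RefSeq R64 genome and annotation with Biopython 1.88, in Python 3.11.15. The 500-base window was chosen after the data were seen. Proteins were not compared.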

Additional observations from a re-analysis of the deposited data

Results flagged for a closer look

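The effect of Myr at 5 and 6 h differed from its effect at 1 to 4 h, by a limma contrast over all genes, in 7 of the 9 trehalose genes. The difference of log2 effects, late minus early, was 1.25 for TSL1, 1.22 for TPS2, 1.04 for PGM2, 0.91 for TPS1, 0.63 for NTH1, 0.35 for UGP1 and 0.30 for ATH1. The mean effect at 5 and 6 h was 1.73 for TSL1, 1.72 for TPS2 and 1.37 for PGM2, against 0.47, 0.50 and 0.33 at 1 to 4 h. With spike-in scaling 4 of the 7 passed, where 2.84% of all genes did, and the differences of NTH1 (0.41, limma, adjusted p = 0.27), UGP1 (0.12) and ATH1 (0.13) did not. Groups of 3 libraries were too small for a search for single outlying libraries.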

How the results depend on the processing

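At 5 h, 9 of 9 genes were higher under every alternative tried except median centring and removal of the length trend (8 each, NTH2 missing) and a minimum mean of 10 TPM (8 of the 8 genes it keeps). Of all genes, 23.6% were higher at 5 h after median centring and 19.9% with the length trend removed. The share was 87.7% with spike-in scaling, 47.6% without the RPL41A-rich libraries and 49.3% with the culture letter as a block. It lay between 51.1% and 53.5% under the other settings that kept all libraries. Counts for the earlier hours moved more. Genes called lower at 0 h numbered 1 with a pseudocount of 10 (5.58% of all genes were), 5 with median centring (13.3%) and 7 with the length trend removed (13.96%). At 1 h, 0 were higher with a pseudocount of 10 (2.21%), 4 with median centring (7.05%), 2 with spike-in scaling (5.22%) and 6 with the length trend removed (7.52%), which also called 1 lower (6.57%). At 2 h, 9 were higher with spike-in scaling (94.7% of all genes were), 4 without the RPL41A-rich libraries (43.9%) and 4 with each hour on its own (39.7%). At 3 h, 9 were higher with spike-in scaling (94.7%), 5 with a pseudocount of 10 (38.5%), 4 with median centring (5.88%), 2 with the length trend removed (4.00%), 1 without the RPL41A-rich libraries (1.34%) and 3 with each hour on its own (5.52%). At 4 h, 9 were higher with spike-in scaling (90.9%), 2 without the RPL41A-rich libraries (2.99%) and 0 with each hour on its own (0.685%). With spike-in scaling the late effect exceeded the early one in 4 genes (2.84% of all genes). Under the same scaling the step between 4 and 5 h in Myr cells was called in 5 (3.44%). The step in vehicle cells was called in 4 with median centring (5.42%) and in 4 with the length trend removed (5.43%). The cause of these moves was not tested.

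With each library left out in turn, the genes called higher numbered 0 to 1 at 1 h, 0 to 4 at 2 h (4 without vehicle 4 h library B), 2 to 8 at 3 h (2 without vehicle 3 h library B, 3 without vehicle 3 h library A, Myr 3 h library A or Myr 3 h library B), 2 to 6 at 4 h (2 without vehicle 4 h library B), 9 at 5 h in each case, 5 to 7 at 6 h, 5 to 9 for the interaction and for late minus early, and 8 to 9 for the drug effect. At 2 h the count was also 2 without vehicle 3 h library D and 1 without vehicle 5 h library A. Differences that crossed 0 in this way ranged over -0.11 to 0.10 (TPS2 at 0 h), -0.082 to 0.028 (ATH1 at 1 h), -0.036 to 0.28 (PGM2 at 2 h), -0.18 to 0.18 (NTH2 at 4 h), -0.12 to 0.040 (ATH1 at 4 h), -0.12 to 0.080 (NTH1, vehicle 6 h against 1 h), and, for vehicle 5 h against 4 h, -0.15 to 0.12 (PGM2), -0.0089 to 0.37 (UGP1) and -0.25 to 0.11 (NTH2).

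Single differences changed sign as follows. Length trend removed: -0.025 (TPS3, 0 h), -0.15, -0.099, -0.058, -0.19 and -0.17 (PGM2, TPS1, TSL1, NTH2 and ATH1, 2 h), -0.053 and -0.11 (NTH2 and ATH1, 3 h), -0.10 (NTH2, 4 h), -0.025 (ATH1, 6 h), -0.071 and -0.033 (NTH2 and ATH1, drug effect) and -0.036 (NTH2, Myr 6 h against 1 h). Median centring: -0.079, -0.070 and -0.079 (PGM2, TPS1 and NTH2, 2 h), -0.095 (NTH2, 4 h) and -0.018 (NTH2, drug effect). Spike-in scaling: 0.16 and 0.29 (NTH2 and ATH1, 1 h), 0.54 (ATH1, 4 h), 0.23, 0.20 and 0.79 (UGP1, NTH1 and NTH2, Myr 1 h against 0 h), 0.49 (NTH2, vehicle 1 h against 0 h), and -0.21, -0.029, -0.013 and -0.066 (PGM2, UGP1, NTH1 and ATH1, vehicle 5 h against 4 h). Without the RPL41A-rich libraries: -0.18 (NTH2, 4 h) and -0.067 (PGM2, vehicle 5 h against 4 h).

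No paired analysis was possible because the columns carry no replicate number that joins a Myr culture to a vehicle culture. Within a treatment the culture letter links hours, and with this letter as a random block (correlation 0.18) the drug effects of NTH2 and ATH1 missed the cutoff (0.14 and 0.18) and no other call was lost. In all, 1251 of 1398 values of single genes under these alternatives kept their direction and side of the threshold, as did 5556 of 5670 with a library left out. Depth is unknown, so no counting error can be given. Groups of 3 libraries, with all hours of a replicate from a single flask by the paper's account, limit what was detectable.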
